A study of Mus musculus with 16 samples.

Results

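In RAW264.7, a mouse macrophage-like line, 10 genes of transforming growth factor beta (TGF-beta) and bone morphogenetic protein (BMP) signalling were followed. They are Ranbp3l, Lrrc32, Tgfb1, Tgfbr1, Tgfbr2, Bmpr1a, Smad1, Smad5, Smad3 and Smad7. These 10 of 55573 gene records were taken by symbol, and all 10 passed the low-count filter that left 13107 genes for testing. They were chosen with the differences between the knockdown (KD) groups and Parental already known, and Ranbp3l for being higher in every KD group. Member values of the KD groups beside Parental are therefore a description: no p-value is given for them, and nothing is read from how many passed a threshold. Differences between the KD groups were tested.

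RNA was sequenced from 16 libraries in 4 groups of 4, named in the labels ORP5/8 KD, ATP11A/C KD, CDC50A KD and Parental. All are the same line, collected on the day after plating with no treatment named, and Parental is the line without a named construct. ORP5 and ORP8 (Osbpl5 and Osbpl8) transfer phosphatidylserine to the plasma membrane at contacts with the endoplasmic reticulum. ATP11A is a flippase that moves it to the inner leaflet, and CDC50A (Tmem30a) is the subunit such flippases need. The prefix "sh" in the KD library names is not explained by the labels. A non-targeting control was not analysed here. The labels do not say whether a KD group is a clone or a pool of cells, nor that the 4 replicates were separate cultures. The p-values therefore rest on differences among these libraries that may be technical.

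Depth was 24020891 to 41543050 counts per library. Osbpl8 stood at 29.4%, 37.6% and 34.5% of the Parental mean in ORP5/8, ATP11A/C and CDC50A KD, and Osbpl5 had 2 to 13 counts per library. Atp11a stood at 86.8%, 34.9% and 70.1%, and Tmem30a at 80.8%, 87.9% and 78.6%. Thus Osbpl8 was low in all 3 KD groups, and Tmem30a did not set the libraries labelled CDC50A KD apart from those labelled ORP5/8 KD. The groups are called by their labels throughout. Of 8 macrophage markers, 7 were above 1 counts-per-million unit (CPM), and their summed level was 6715 to 7106 CPM in ORP5/8 KD, 5393 to 5800 in ATP11A/C KD, 6305 to 6571 in CDC50A KD and 10335 to 11016 in Parental. Lyz2 held most of that sum, at means of 4168, 2582 and 2859 CPM in ORP5/8, ATP11A/C and CDC50A KD against 7207 CPM in Parental. Like Lyz2, Cd68, Itgam and Fcgr1 were below the Parental mean in every KD group. Cd68 stood at 82.4%, 77.4% and 81.3% of it, Itgam at 63.3%, 69.0% and 78.5%, and Fcgr1 at 49.5%, 74.6% and 95.5%. The remaining markers did not move alike. Adgre1 (F4/80) stood at 115%, 155% and 141% of the Parental mean, Csf1r at 82.1%, 90.8% and 113%, and Spi1 at 80.5%, 90.0% and 108%. Mertk was the marker below 1 CPM. All 8 fibroblast, 6 regulatory T cell, 5 platelet and 4 endothelial markers were below 1 CPM in every library, with Col1a2, Col3a1, Dcn, Lum, Pdgfra, Thy1, Cd3e, Cd3g and Ppbp at 0. The mitochondrial share of counts was 1.52% to 1.77% in ORP5/8 KD, 1.36% to 1.78% in ATP11A/C KD, 1.42% to 1.76% in CDC50A KD and 1.08% to 1.26% in Parental. The part of the macrophage marker level and of the mitochondrial share in the results that follow was not tested. In bulk RNA, fewer cells of a type and less RNA per cell cannot be told apart.

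TGF-beta is secreted in a latent complex and, once freed, binds the type II receptor Tgfbr2, which recruits and phosphorylates the type I receptor Tgfbr1. That receptor phosphorylates Smad2 and Smad3, whereas BMP receptors such as Bmpr1a phosphorylate Smad1, Smad5 and Smad9; both kinds join Smad4 and enter the nucleus. Smad7 is induced by the pathway and blocks the receptors. Ranbp3l is a Ran-binding protein that takes Smad1 and Smad5 out of the nucleus, and its relative Ranbp3 does so for Smad2 and Smad3. Lrrc32 (GARP) holds latent TGF-beta on the surface of regulatory T cells and platelets, and Nrros does so on macrophages and microglia. TGF-beta is known in macrophages as a signal that restrains inflammatory genes.

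Promoters are shown for Ranbp3l and for the receptors Tgfbr1 and Tgfbr2, because these 3 genes were separated from Parental in one direction in every KD group. They were thus picked by their values. The share of all tested genes separated in this way is not given here, so nothing is read from the separation. Each is the 250 bases before the gene's start, from RefSeq on GRCm38.p6, read 5′ to 3′ on the gene's strand. Capitals mark matches on either strand to CAGAC (a Smad-binding element), GGCGCC (a GC-rich Smad element) or GAGGAA (an Ets element read by Spi1, the macrophage lineage factor). The palindrome GTCTAGAC was also searched, and none of these 3 windows held it. Ranbp3l lies at chr15:8967699-8967948 (plus strand), Tgfbr1 at chr4:47352972-47353221 (plus strand) and Tgfbr2 at chr9:116175364-116175613 (minus strand).
Ranbp3l: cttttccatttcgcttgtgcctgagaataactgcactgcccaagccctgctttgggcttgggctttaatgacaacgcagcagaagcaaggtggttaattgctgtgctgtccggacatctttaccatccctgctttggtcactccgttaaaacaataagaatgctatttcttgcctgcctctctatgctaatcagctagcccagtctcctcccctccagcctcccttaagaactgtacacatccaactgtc
Tgfbr1: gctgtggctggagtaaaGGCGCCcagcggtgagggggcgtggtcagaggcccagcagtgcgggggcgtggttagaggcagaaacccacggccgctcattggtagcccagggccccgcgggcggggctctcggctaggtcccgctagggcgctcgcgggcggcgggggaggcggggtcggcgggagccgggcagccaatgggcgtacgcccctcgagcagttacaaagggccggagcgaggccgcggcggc
Tgfbr2: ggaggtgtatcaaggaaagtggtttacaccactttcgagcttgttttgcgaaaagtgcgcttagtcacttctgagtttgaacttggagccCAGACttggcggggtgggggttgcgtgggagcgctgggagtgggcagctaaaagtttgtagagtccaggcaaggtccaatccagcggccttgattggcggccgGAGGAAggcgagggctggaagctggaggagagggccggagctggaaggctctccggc

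The Ranbp3l window held none of these letters, which says only that they are not in these 250 bases. In the Tgfbr1 window GGCGCC starts 233 bases before the gene's start, and in the Tgfbr2 window CAGAC starts 160 and GAGGAA 57 bases before it. Tgfbr1 has a further RefSeq window at a later transcript start, chr4:47385966-47386215, whose sequence is not shown. It held CAGAC 203 and GAGGAA 95 bases before that start and no GGCGCC. Among 32817 promoters of the same length, 42.2% held CAGAC, 9.59% GGCGCC, 23.3% GAGGAA and 0.168% GTCTAGAC. G and C made up 48.8% of the Ranbp3l window, 74.8% of that of Tgfbr1 and 58.4% of that of Tgfbr2, against a median of 52.4% over all promoters.

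Ranbp3l, the export factor for BMP Smads, was low in Parental and more than 10 times as high in each KD group. It lies on chromosome 15, 8967949 to 9067335 on the plus strand. Its level was 101, 90.0, 85.0 and 97.1 CPM in ORP5/8 KD 1 to 4. It was 69.9, 74.8, 81.9 and 82.0 CPM in ATP11A/C KD, and 86.9, 94.5, 86.1 and 102 CPM in CDC50A KD. In Parental it was 6.28, 6.51, 6.71 and 7.98 CPM. Every KD library lay far above every Parental library, and the KD means were 13.6, 11.2 and 13.4 times the Parental mean for ORP5/8, ATP11A/C and CDC50A KD. The log2 fold changes over Parental, as estimate ± standard error from edgeR, were 3.76 ± 0.0854, 3.49 ± 0.0855 and 3.75 ± 0.0856; these are the values that chose the gene.

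Between the KD groups Ranbp3l was lowest in ATP11A/C KD. It averaged 92.4 ± 7.53 CPM in CDC50A KD against 77.1 ± 5.87 CPM in ATP11A/C KD (SD, n = 4 each), a log2 fold change of 0.26 ± 0.0686 (edgeR, adjusted p = 0.00824). It averaged 93.4 ± 7.32 CPM in ORP5/8 KD, a log2 fold change of 0.28 ± 0.0682 over ATP11A/C KD (edgeR, adjusted p = 0.00275). In both comparisons the 4 and 4 libraries did not overlap. ORP5/8 KD and CDC50A KD did not differ beyond their spread, with a log2 fold change of 0.02 and a 95% interval of -0.13 to 0.16 (edgeR, adjusted p = 0.864).

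**Figure D1:**
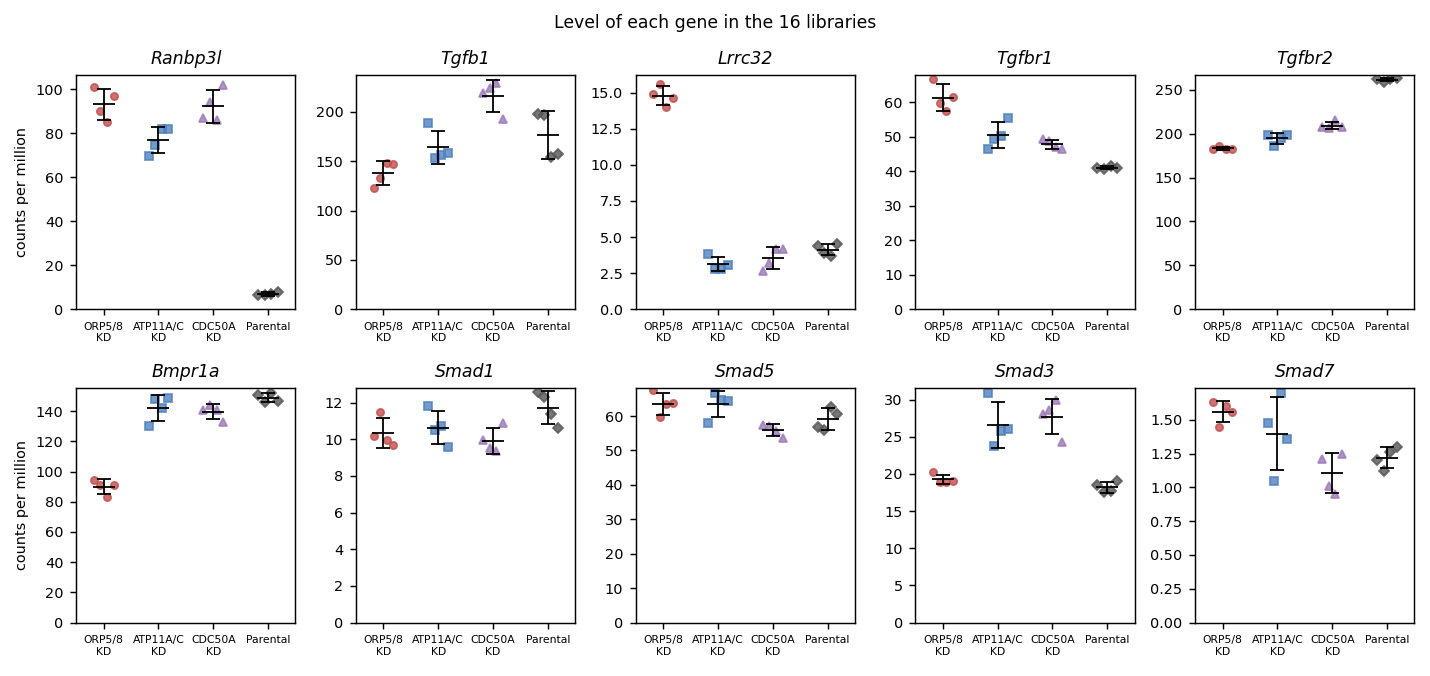
Level of each of the 10 genes in every library, in CPM, with 1 panel per gene and the groups ORP5/8 KD, ATP11A/C KD, CDC50A KD and Parental from left to right. Points are libraries and bars are the mean with its SD (n = 4); Ranbp3l lies between 69.9 and 102 CPM in the KD groups and between 6.28 and 7.98 CPM in Parental, and Lrrc32 is high in ORP5/8 KD.

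Lrrc32, the anchor of latent TGF-beta, was high in ORP5/8 KD alone among these groups. It lies on chromosome 7, 98489283 to 98502181 on the plus strand. It had 14.9, 15.6, 14.0 and 14.6 CPM in ORP5/8 KD. In ATP11A/C KD it had 3.83, 2.79, 2.81 and 3.07 CPM, and 2.68, 3.20, 4.17 and 4.15 CPM in CDC50A KD. Parental libraries gave 4.37, 3.91, 3.71 and 4.52 CPM. The lowest ORP5/8 KD library lay more than 9 CPM above the highest library of any other group, while the other 3 groups overlapped one another. ORP5/8 KD was higher in Lrrc32, by a log2 fold change of 2.23 ± 0.124 over ATP11A/C KD (edgeR, adjusted p = 6.73e-12) and of 2.05 ± 0.124 over CDC50A KD (1.51e-11). Between CDC50A KD and ATP11A/C KD the difference was 0.18, with an interval of -0.11 to 0.48 (edgeR, adjusted p = 0.345). Over Parental on the log2 scale, ORP5/8 KD stood at 1.83 ± 0.122, ATP11A/C KD at -0.40 ± 0.134 and CDC50A KD at -0.22 ± 0.134. Of the cells known for Lrrc32, the regulatory T cell and platelet markers were below 1 CPM in every library, as given above.

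Tgfb1, the TGF-beta ligand of these cells, was highest in CDC50A KD and lowest in ORP5/8 KD. It lies on chromosome 7, 25687002 to 25705077 on the plus strand. It had 123, 133, 148 and 147 CPM in ORP5/8 KD. It had 189, 153, 156 and 158 CPM in ATP11A/C KD, and 219, 224, 229 and 193 CPM in CDC50A KD. In Parental it had 198, 197, 154 and 157 CPM, so that libraries 1 and 2 lay apart from libraries 3 and 4. The log2 fold change of CDC50A KD over ATP11A/C KD was 0.39 ± 0.0860 (edgeR, adjusted p = 0.00223), and ORP5/8 KD lay below CDC50A KD by -0.65 ± 0.0863 (2.11e-06). The difference of ORP5/8 KD from ATP11A/C KD was -0.26 ± 0.0862 (edgeR, adjusted p = 0.0231). That call was lost without ORP5/8 KD 1 (adjusted p = 0.0948) or 2 (0.0658), without ATP11A/C KD 1 (0.109), and with upper-quartile scaling (0.0586). Over Parental on the log2 scale, ORP5/8 KD stood at -0.36 ± 0.0863, ATP11A/C KD at -0.10 ± 0.0861 and CDC50A KD at 0.29 ± 0.0860. Of 16 other ligands of the family that were listed, all 16 were below 1 CPM in every library and 9 had no count in any. The highest single value among them was 0.301 CPM, of Gdf15.

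The TGF-beta receptor chains differed in opposite directions from Parental. Tgfbr1, the type I receptor (chromosome 4, 47353222 to 47414931, plus strand), had 66.8, 59.7, 57.5 and 61.7 CPM in ORP5/8 KD. It had 46.6, 49.4, 50.2 and 55.6 CPM in ATP11A/C KD and 49.3, 48.7, 47.2 and 46.5 CPM in CDC50A KD. In Parental it had 41.1, 40.8, 41.6 and 40.9 CPM. All 12 KD libraries lay above all 4 Parental libraries, with log2 fold changes of 0.58 ± 0.0531, 0.29 ± 0.0535 and 0.22 ± 0.0538 for ORP5/8, ATP11A/C and CDC50A KD. ORP5/8 KD lay above ATP11A/C KD by 0.28 ± 0.0523 (edgeR, adjusted p = 0.000173) and above CDC50A KD by 0.36 ± 0.0527 (7.79e-06). CDC50A KD and ATP11A/C KD did not differ beyond their spread, at -0.07 with an interval of -0.19 to 0.04 (edgeR, adjusted p = 0.324).

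Tgfbr2, the type II receptor that binds the ligand (chromosome 9, 116084293 to 116175360, minus strand), had 183, 186, 183 and 182 CPM in ORP5/8 KD. It had 198, 186, 195 and 199 CPM in ATP11A/C KD and 207, 206, 215 and 208 CPM in CDC50A KD. The Parental values were 262, 259, 262 and 263 CPM. All 12 KD libraries lay below all 4 Parental libraries, with log2 fold changes of -0.51 ± 0.0343, -0.43 ± 0.0342 and -0.32 ± 0.0342 for ORP5/8, ATP11A/C and CDC50A KD. ORP5/8 KD lay below CDC50A KD by -0.19 ± 0.0343 (edgeR, adjusted p = 9.53e-05). CDC50A KD lay above ATP11A/C KD by 0.10 ± 0.0343 (edgeR, adjusted p = 0.0304). That call was lost with upper-quartile scaling (0.0712), without the low-count filter (0.0789), in a fit of the 2 groups alone (0.14) and without ATP11A/C KD 2 (0.0982) or 3 (0.0761). It was also lost without any 1 of CDC50A KD 1 to 4 (0.0741, 0.0634, 0.133 and 0.0706). ORP5/8 KD and ATP11A/C KD differed by -0.08, with an interval of -0.16 to -0.01 (edgeR, adjusted p = 0.0569), a difference that passed with DESeq2 (0.017) and without ATP11A/C KD 2 (0.0169).

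Bmpr1a, a type I BMP receptor, was low in ORP5/8 KD and near the Parental level elsewhere. It lies on chromosome 14, 34410734 to 34503341 on the minus strand. It had 94.6, 91.3, 83.1 and 91.2 CPM in ORP5/8 KD. It had 130, 148, 142 and 149 CPM in ATP11A/C KD and 141, 144, 141 and 133 CPM in CDC50A KD. The Parental values were 151, 146, 152 and 147 CPM. The ORP5/8 KD libraries lay below every library of the other 3 groups, and those of CDC50A KD also lay below Parental. The log2 fold change of ORP5/8 KD was -0.66 ± 0.0477 over ATP11A/C KD (edgeR, adjusted p = 4.27e-10) and -0.63 ± 0.0478 over CDC50A KD (5.38e-10). CDC50A KD and ATP11A/C KD differed by -0.03, with an interval of -0.13 to 0.08 (edgeR, adjusted p = 0.715). Over Parental on the log2 scale, ORP5/8 KD stood at -0.73 ± 0.0478, ATP11A/C KD at -0.07 and CDC50A KD at -0.10.

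Smad3, the TGF-beta effector, was higher in ATP11A/C and CDC50A KD than in ORP5/8 KD. It lies on chromosome 9, 63646767 to 63757994 on the minus strand. It had 20.2, 18.9, 18.9 and 19.1 CPM in ORP5/8 KD. It had 30.9, 23.7, 25.7 and 26.0 CPM in ATP11A/C KD and 28.0, 28.6, 29.9 and 24.3 CPM in CDC50A KD. The Parental values were 18.5, 17.5, 17.7 and 19.0 CPM. The ATP11A/C and CDC50A KD libraries lay above all others, and ORP5/8 KD and Parental overlapped. ORP5/8 KD was lower than ATP11A/C KD by -0.46 ± 0.0746 (edgeR, adjusted p = 3.89e-05) and than CDC50A KD by -0.52 ± 0.0749 (6.03e-06). CDC50A KD and ATP11A/C KD differed by 0.06, with an interval of -0.10 to 0.22 (edgeR, adjusted p = 0.609). Over Parental on the log2 scale, ORP5/8 KD stood at 0.08 ± 0.0764, ATP11A/C KD at 0.55 ± 0.0757 and CDC50A KD at 0.60 ± 0.0760.

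Smad1 and Smad5, the BMP effectors that Ranbp3l exports, stayed within narrow ranges. Smad1 (chromosome 8, 79338395 to 79399518, minus strand) had 9.67 to 11.5 CPM in ORP5/8 KD, 9.55 to 11.8 in ATP11A/C KD, 9.34 to 10.9 in CDC50A KD and 10.6 to 12.6 in Parental. Each KD group overlapped Parental, at log2 fold changes of -0.18 ± 0.0832, -0.14 ± 0.0834 and -0.24 ± 0.0844 for ORP5/8, ATP11A/C and CDC50A KD. No pair of KD groups differed beyond its spread, with log2 fold changes of -0.10 for CDC50A KD over ATP11A/C KD (interval -0.28 to 0.08), -0.04 for ORP5/8 KD over ATP11A/C KD (-0.22 to 0.14) and 0.06 for ORP5/8 KD over CDC50A KD (-0.12 to 0.24). The edgeR adjusted p-values were 0.411, 0.736 and 0.574.

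Smad5 (chromosome 13, 56703010 to 56742377, plus strand) had 67.5, 59.6, 63.4 and 63.9 CPM in ORP5/8 KD. It had 57.9, 66.6, 64.6 and 64.4 CPM in ATP11A/C KD and 57.4, 57.1, 55.7 and 53.7 CPM in CDC50A KD. In Parental it had 56.8, 55.9, 62.7 and 60.6 CPM, and each KD group overlapped that range, with log2 fold changes of 0.11, 0.10 and -0.08 for ORP5/8, ATP11A/C and CDC50A KD. CDC50A KD was lower than ATP11A/C KD by -0.18 ± 0.0515 (edgeR, adjusted p = 0.0144), and ORP5/8 KD was higher than CDC50A KD by 0.18 ± 0.0514 (0.00447). ORP5/8 KD and ATP11A/C KD differed by 0.01, with an interval of -0.11 to 0.12 (edgeR, adjusted p = 0.951).

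Smad7, the inhibitory Smad (chromosome 18, 75367529 to 75395935, plus strand), had the fewest reads of the 10 genes. Its counts per library were 58 to 65 in ORP5/8 KD, 35 to 71 in ATP11A/C KD, 23 to 49 in CDC50A KD and 35 to 43 in Parental. It averaged 1.56 ± 0.0796 CPM in ORP5/8 KD, 1.40 ± 0.272 in ATP11A/C KD, 1.10 ± 0.148 in CDC50A KD and 1.22 ± 0.0762 in Parental. ORP5/8 KD lay above Parental in every library, and ATP11A/C and CDC50A KD overlapped Parental. The log2 fold changes over Parental were 0.35 ± 0.174, 0.21 ± 0.176 and -0.13 ± 0.183 for ORP5/8, ATP11A/C and CDC50A KD. ORP5/8 KD was higher than CDC50A KD by a log2 fold change of 0.48 ± 0.175 (edgeR, adjusted p = 0.0233), a call that was lost without the low-count filter (0.0741) and without CDC50A KD 3 (0.0643). CDC50A KD over ATP11A/C KD was -0.34 (interval -0.73 to 0.05, edgeR, adjusted p = 0.166), and ORP5/8 KD over ATP11A/C KD was 0.14 (-0.22 to 0.51, 0.541).

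**Figure D2:**
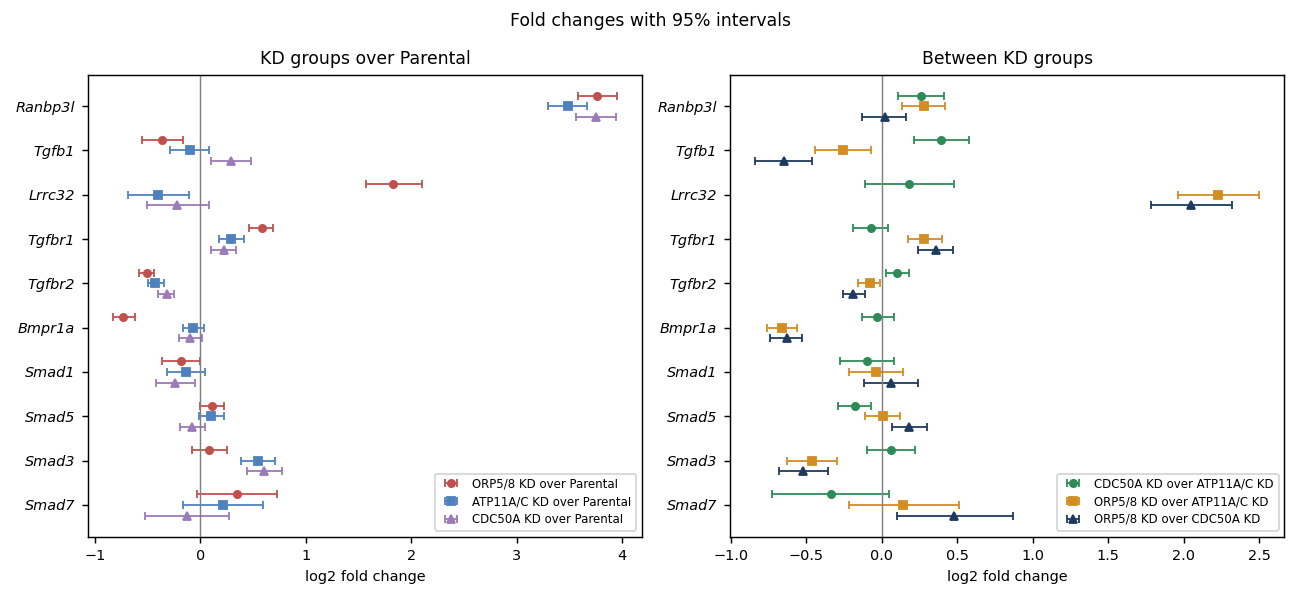
Log2 fold change of each of the 10 genes with its 95% interval from edgeR, for the KD groups over Parental and for the KD groups over each other. Ranbp3l stands at 3.49 to 3.76 over Parental in every KD group, and Lrrc32 at 1.83 in ORP5/8 KD.

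Counted over all 10 genes, 3 were called higher and 3 lower than Parental in ORP5/8 KD, where 22.0% of all tested genes were called higher and 24.3% lower (46.2% in all) at an adjusted p under 0.05. In ATP11A/C KD 3 were called higher and 2 lower, beside 17.4% and 20.2% of all genes (37.6% in all), and in CDC50A KD 4 higher and 2 lower, beside 24.3% and 26.1% (50.4% in all). With upper-quartile scaling the ORP5/8 KD split was 5 higher and 3 lower. With that scaling 6749 of all 13107 genes were called, 63.3% of them higher, against 6059 and 47.5% in the main fit. The 10 genes were chosen with these differences known, so nothing is read from these counts. Of the 10, 3 were higher and 1 lower in CDC50A KD than in ATP11A/C KD, beside 13.5% and 12.7% of all genes (26.2% in all). In ORP5/8 KD over ATP11A/C KD 3 were higher and 3 lower, beside 18.2% and 20.4% (38.7% in all), and over CDC50A KD 4 were higher and 4 lower, beside 27.5% and 29.4% (56.8% in all). The 3 comparisons with Parental share the Parental libraries, and those between KD groups share KD libraries in pairs.

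Per kilobase of exon, which allows levels to be compared between genes, Tgfb1 was the most abundant of the 10 in every group. Its mean level was 27.3, 32.6, 42.8 and 35.0 CPM per kb in ORP5/8, ATP11A/C and CDC50A KD and in Parental. Tgfbr2 followed at 22.4, 23.8, 25.5 and 31.9 CPM per kb, and Bmpr1a at 14.2, 22.4, 22.0 and 23.5 CPM per kb. Ranbp3l reached 13.6, 11.3 and 13.5 CPM per kb in the KD groups, against 1.0 in Parental. It therefore stood above Tgfbr1 (9.4, 7.72 and 7.33 CPM per kb) and Smad5 (8.57, 8.54 and 7.55) in the KD groups, and below both in Parental, where these were at 6.29 and 7.95 CPM per kb. Smad3 stood at 3.28 to 5.0, Lrrc32 at 0.667 to 3.15, Smad1 at 1.58 to 1.87 and Smad7 at 0.244 to 0.345 CPM per kb over the 4 group means.

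**Figure D3:**
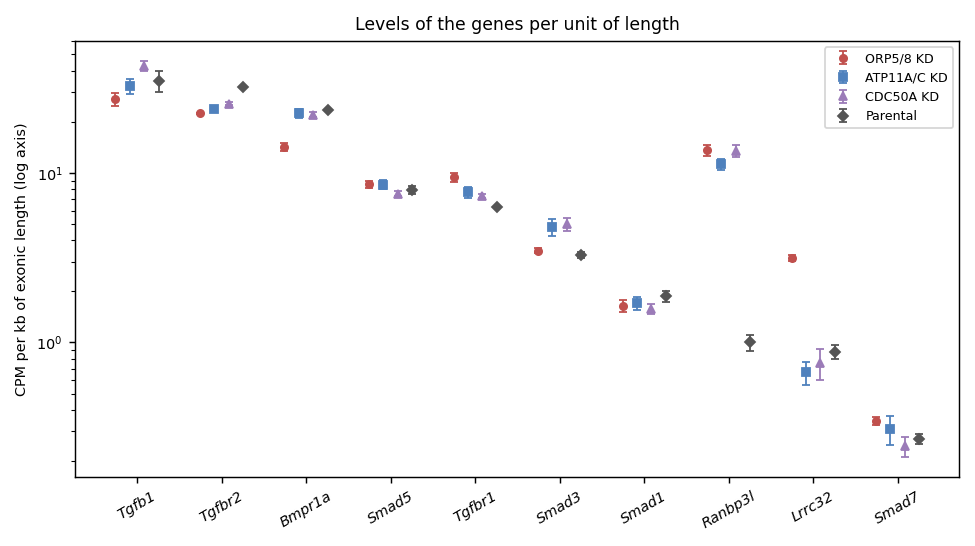
Mean level of each of the 10 genes in CPM per kilobase of exon on a log axis, with 1 series per group and error bars showing the SD over 4 libraries. Ranbp3l lies at 11.3 to 13.6 CPM per kb in the KD groups and at 1.0 in Parental.

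The wider pathway was described with 105 other genes listed by role, of which 57 were tested. The list was drawn up with earlier results of these data known, and most genes named below were picked by their smallest adjusted p. Their adjusted p-values against Parental are therefore a description and not an independent test. Against Parental, 10 were called higher and 23 lower in ORP5/8 KD (57.9% of the 57), 14 higher and 14 lower in ATP11A/C KD (49.1%), and 17 higher and 14 lower in CDC50A KD (54.4%). Among all genes, the shares called were 46.2%, 37.6% and 50.4%. The median log2 fold change of the 57 was -0.10, -0.03 and -0.03, beside 0.02, 0.01 and -0.01 over all genes. With upper-quartile scaling the split was 16 higher and 15 lower in ORP5/8 KD, and 19 and 12 in ATP11A/C KD. All genes shifted too. Of those called, 63.3% and 53.5% were higher with that scaling, against 47.5% and 46.2% in the main fit. Of the 57, 4 were higher in all 3 KD groups (Acvr2b, Furin, Ran and Tgif2) and 10 lower in all 3. Among the 10 were Acvrl1, Cdkn1a, Eng, Fbn1, Klf10, Rgmb, Twsg1, Wwp1 and Zfyve9. For Acvr2b, Cdkn1a and Klf10 a call was lost in some other settings, as given below. The share of all genes called one way in all 3 is not given here, and the comparisons share the Parental libraries. Nothing is therefore read from these counts.

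Between KD groups, 17 of the 57 differed between CDC50A and ATP11A/C KD (29.8%, beside 26.2% of all genes). For that comparison the count was 11 without the low-count filter and 6 in a fit of the 2 groups alone. It was 10, 7 and 9 without ATP11A/C KD 2, 3 or 4, and 7, 10 and 11 without CDC50A KD 1, 2 or 3. Calls over all genes also varied. They were 3428 of 13107 in the main fit, 3399 of 21351 without the filter and 2573 of 12672 in the fit of the 2 groups. Without those libraries in turn they were 3420, 2361 and 2838, then 2700, 2680 and 2531. Between ORP5/8 and ATP11A/C KD 7 of the 57 were higher and 13 lower (35.1%, beside 38.7%). Between ORP5/8 and CDC50A KD 11 were higher and 19 lower (52.6%, beside 56.8%). These shares lie near or below those of all genes. With upper-quartile scaling those splits were 10 and 12, and 17 and 16. Of all genes called, 60.5% and 60.7% were then higher, against 47.2% and 48.4% in the main fit.

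Among genes of latency and activation, Nrros, the macrophage anchor of latent TGF-beta and relative of Lrrc32, averaged 176 ± 9.34 CPM in ORP5/8 KD, 223 ± 10.2 in ATP11A/C KD, 232 ± 11.2 in CDC50A KD and 240 ± 8.48 in Parental. It fell in ORP5/8 KD by a log2 fold change of -0.45 (edgeR, adjusted p = 9.73e-08), where Lrrc32 was high. Furin, the protease that cleaves the TGF-beta precursor, averaged 102 ± 7.57, 90.7 ± 18.4 and 86.9 ± 5.25 CPM in ORP5/8, ATP11A/C and CDC50A KD, against 67.2 ± 3.63 CPM in Parental. It rose in each, by 0.60, 0.43 and 0.37 (edgeR, adjusted p = 3.78e-05, 0.00149 and 0.00372). Itgav, a subunit of the integrins that free TGF-beta, averaged 62.3 ± 3.72 CPM in ORP5/8 KD against 78.6 ± 2.94 CPM in Parental and fell by -0.34 (edgeR, adjusted p = 0.00024). The integrin subunits Itgb6 and Itgb8, also listed, had 0 counts in every library.

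Of 8 other receptors tested, 1 rose and 4 fell in ORP5/8 KD, 2 rose and 4 fell in ATP11A/C KD, and 1 rose and 4 fell in CDC50A KD. The shares called were 62.5%, 75.0% and 62.5%, beside 46.2%, 37.6% and 50.4% of all genes. Acvr2b, a type II activin receptor, averaged 9.58 ± 0.326, 7.84 ± 1.05 and 6.55 ± 0.279 CPM in ORP5/8, ATP11A/C and CDC50A KD against 5.53 ± 0.296 CPM in Parental. Its log2 fold changes were 0.79, 0.51 and 0.24 (edgeR, adjusted p = 2.7e-07, 0.000144 and 0.0356). The last call was lost without the low-count filter (0.068) and without any 1 of Parental 2, 3 or 4 or CDC50A KD 2, 3 or 4 (0.064 to 0.103). Acvrl1, a type I receptor for BMP9, averaged 10.4 ± 0.627, 9.41 ± 1.06 and 11.1 ± 0.899 CPM, against 15.1 ± 0.848 CPM in Parental, and its smallest adjusted p was in ATP11A/C KD (-0.68, edgeR, 1.44e-06). Acvr1, another type I BMP receptor, averaged 18.3 ± 1.06 CPM in ORP5/8 KD against 24.6 ± 1.5 CPM in Parental and fell by -0.43 (edgeR, adjusted p = 3.52e-06). Eng, a co-receptor chosen after its values were seen, averaged 2.28 ± 0.307, 2.56 ± 0.281 and 2.19 ± 0.305 CPM, against 4.45 ± 0.552 CPM in Parental. It fell by -0.96, -0.80 and -1.03 (edgeR, adjusted p = 7.21e-06, 9.87e-05 and 4.42e-06).

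Among the other Smads, Smad4, the shared partner, averaged 61.3 ± 1.78 CPM in ORP5/8 KD, 62.4 ± 3.54 in CDC50A KD and 55.3 ± 0.71 in Parental, with log2 fold changes of 0.15 and 0.17 (edgeR, adjusted p = 0.00777 and 0.00247). Smad6, the inhibitory Smad of the BMP branch, averaged 3.48 ± 0.517 CPM in ORP5/8 KD, 3.62 ± 0.517 in CDC50A KD and 2.39 ± 0.481 in Parental, with log2 fold changes of 0.54 and 0.60 (edgeR, adjusted p = 0.0212 and 0.0111). The ORP5/8 KD call was lost without Parental 3 (0.0505), Parental 4 (0.0839) or ORP5/8 KD 2 (0.0723), and the CDC50A KD call without CDC50A KD 1 (0.0554). Smad2 averaged 55.0 ± 3.14 CPM in ORP5/8 KD against 61.1 ± 1.67 CPM in Parental, at -0.15 (edgeR, adjusted p = 0.0141). That call was lost with upper-quartile scaling (0.198) and without Parental 2 (0.053), ORP5/8 KD 2 (0.0669) or ORP5/8 KD 3 (0.076).

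Of 24 intracellular regulators, 4 rose and 6 fell in ORP5/8 KD, 7 rose and 5 fell in ATP11A/C KD, and 8 rose and 4 fell in CDC50A KD. The shares called, 41.7%, 50% and 50%, stand beside 46.2%, 37.6% and 50.4% of all genes. Tgif2, a corepressor of Smad2 and Smad3, averaged 17.4 ± 1.12, 13.7 ± 1.12 and 14.8 ± 1.57 CPM in ORP5/8, ATP11A/C and CDC50A KD against 7.60 ± 0.41 CPM in Parental. It rose by 1.20, 0.85 and 0.97 (edgeR, adjusted p = 1.28e-10, 5.97e-08 and 8.14e-09). Its paralog Tgif1 averaged 40.2 ± 2.59 CPM in ATP11A/C KD and 36.2 ± 1.19 CPM in CDC50A KD, against 49.8 ± 2.53 CPM in Parental, and fell by -0.31 and -0.46 (edgeR, adjusted p = 6.75e-05 and 3.24e-07). Zfyve9 (SARA), which presents Smad2 and Smad3 to the receptor, averaged 3.96 ± 0.582, 3.33 ± 0.35 and 3.81 ± 0.395 CPM, against 6.84 ± 0.365 CPM in Parental, with its smallest adjusted p in ATP11A/C KD (-1.04, edgeR, 3.28e-07). Pmepa1, a target that dampens the pathway and chosen after its values were seen, averaged 1.44 ± 0.369 CPM in ORP5/8 KD against 3.54 ± 0.705 CPM in Parental and fell by -1.30 (edgeR, adjusted p = 3.43e-05).

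Of 9 target genes tested, 1 rose and 5 fell in ORP5/8 KD, 2 rose and 3 fell in ATP11A/C KD, and 2 rose and 4 fell in CDC50A KD. Of these genes 66.7%, 55.6% and 66.7% were called, beside 46.2%, 37.6% and 50.4% of all genes. Cdkn1a (p21), a cell cycle inhibitor with many other inputs, averaged 115 ± 5.76, 241 ± 13.3 and 193 ± 12.1 CPM, against a range of 259 to 278 CPM in Parental. It fell by -1.20 in ORP5/8 KD and -0.45 in CDC50A KD (edgeR, adjusted p = 2.77e-14 and 2.61e-07). In ATP11A/C KD it was at -0.14 (0.0345), a call lost with upper-quartile scaling (0.0752) and without any 1 of Parental 1, 2 or 3 or ATP11A/C KD 2, 3 or 4 (0.0599 to 0.154). Klf10, an early TGF-beta response gene, averaged 29.0 ± 1.51 CPM in CDC50A KD against 39.2 ± 1.84 CPM in Parental and fell by -0.44 (edgeR, adjusted p = 7.45e-07). In ORP5/8 KD it averaged 35.0 ± 0.491 CPM, at -0.17 (edgeR, adjusted p = 0.0126), a call lost with upper-quartile scaling (0.156) and without ORP5/8 KD 2 (0.0554) or Parental 1 (0.101). Id1, a BMP target chosen after its values were seen, averaged 1.23 ± 0.203 CPM in ORP5/8 KD against 2.24 ± 0.467 CPM in Parental and fell by -0.87 (edgeR, adjusted p = 0.000828). In ATP11A/C KD it averaged 2.28 ± 0.146 CPM and in CDC50A KD 2.84 ± 0.675 CPM, at 0.02 and 0.34 (edgeR, adjusted p = 0.946 and 0.126). The called genes that were higher, also chosen after their values were seen, were Id3, Atoh8 and Klf11. Id3, another BMP target, averaged 28.5 ± 1.13 CPM in ATP11A/C KD and 29.1 ± 2.03 CPM in CDC50A KD, against 22.7 ± 2.81 CPM in Parental, and rose by 0.33 and 0.36 (edgeR, adjusted p = 0.00258 and 0.000802). Atoh8, a transcription factor, averaged 0.642 ± 0.119 CPM in ATP11A/C KD and 0.669 ± 0.355 CPM in CDC50A KD, against 0.236 ± 0.12 CPM in Parental, at 1.39 in both (edgeR, adjusted p = 0.011 and 0.0088). Klf11, a relative of Klf10, averaged 7.62 ± 0.844 CPM in ORP5/8 KD against 4.86 ± 0.655 CPM in Parental and rose by 0.64 (edgeR, adjusted p = 9.37e-05). Of 3 antagonists tested, 2 were called lower and none higher in each KD group. This is 66.7% of them, beside 46.2%, 37.6% and 50.4% of all genes, and with 3 genes no direction is read from it. Of the 2, Twsg1, a BMP-binding protein, averaged 94.6 ± 2.33 CPM in CDC50A KD against 115 ± 2.88 CPM in Parental (-0.28, edgeR, adjusted p = 1.87e-05). The other was Fbn1 (fibrillin-1), a matrix protein that stores latent TGF-beta and BMP complexes, at a mean under 1 CPM in each group.

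Of 6 nuclear export genes, 1 rose and 3 fell in ORP5/8 KD, 2 rose in ATP11A/C KD and 3 rose in CDC50A KD. This is 66.7%, 33.3% and 50% of them, beside 46.2%, 37.6% and 50.4% of all genes. Ranbp3, the relative of Ranbp3l, averaged 110 ± 6.79, 119 ± 8.58 and 111 ± 5.33 CPM, against 121 ± 3.91 CPM in Parental. Its log2 fold change in ORP5/8 KD was -0.14 (edgeR, adjusted p = 0.0418), a call lost with upper-quartile scaling (0.348), without the low-count filter (0.0549) and without any 1 of Parental 1, 2 or 4 or ORP5/8 KD 1, 2 or 4 (0.0647 to 0.201). Ran, the GTPase of nuclear transport, averaged 1078 ± 6.49 CPM in CDC50A KD against 831 ± 25.7 CPM in Parental and rose by 0.38 (edgeR, adjusted p = 6.66e-08). Its partners Ranbp1 and Rangap1 rose in CDC50A KD by 0.30 and 0.22 (edgeR, adjusted p = 0.000135 and 0.000164). Ranbp1 fell in ORP5/8 KD by -0.22 (edgeR, adjusted p = 0.00277). Rangap1 was at -0.15 in ORP5/8 KD (edgeR, adjusted p = 0.00389), a call lost with upper-quartile scaling (0.102).

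**Figure D4:**
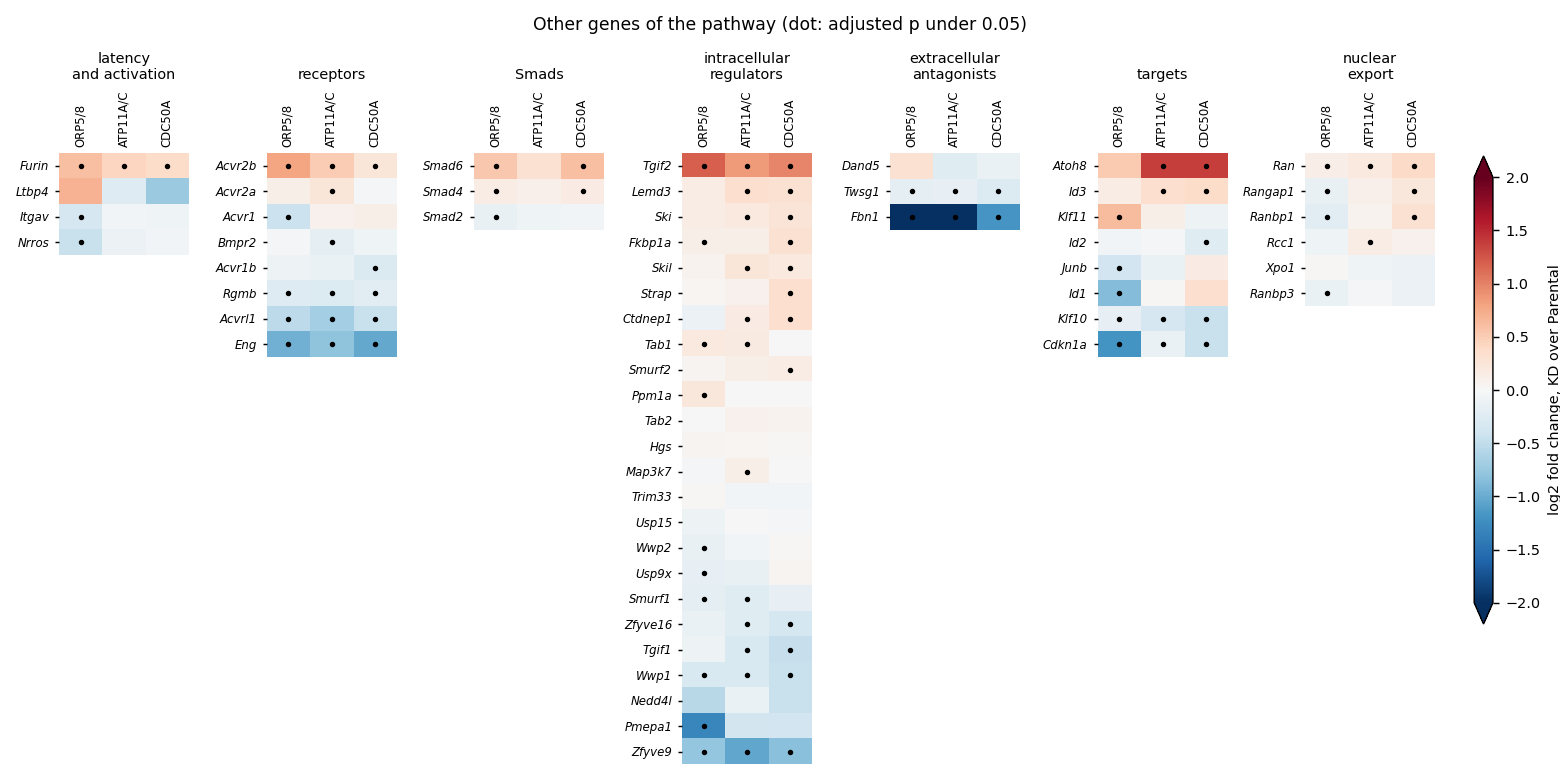
Log2 fold change over Parental of tested pathway genes other than the 10, grouped by role, in ORP5/8, ATP11A/C and CDC50A KD from left to right. Colour saturates at 2 in either direction, which Fbn1 goes past, and a dot marks an adjusted p under 0.05; Tgif2 is high and Zfyve9 low in every column.

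Over all 16 libraries, the genes whose log2 CPM was most like that of Ranbp3l were Ubac2 (Pearson r = 0.975), Chst1 (0.971), Car2 (0.971), Cbfa2t3 (0.964) and Nxf7 (0.962), among 9316 genes compared. The most opposite were App (-0.988), Tmem106a (-0.986) and Klf6 (-0.985). In all, 53 genes had r of at least 0.9 and 229 had r of -0.9 or lower. Among pathway genes, Tgif2 had 0.947 and Zfyve9 -0.905, and among the 10 genes Tgfbr2 had -0.927 and Tgfbr1 0.751. These values describe a pattern set by 12 KD libraries against 4 Parental libraries that share a protocol and line.

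The nearest genes on each side of Ranbp3l and Lrrc32 were looked up after the data were seen. Only protein-coding genes that passed the low-count filter were considered, so other genes may lie nearer. Nadk2, which encodes mitochondrial NAD kinase, lies 3.92 kb after Ranbp3l and averaged 41.0, 31.5 and 36.2 CPM in ORP5/8, ATP11A/C and CDC50A KD against 31.4 CPM in Parental. Nipbl, the cohesin loader 523 kb before it, averaged 136, 123 and 126 CPM against 121 CPM in Parental. Neither neighbour came near the more than 10-fold difference of Ranbp3l. Tsku, which encodes a secreted leucine-rich repeat protein, lies 128 kb before Lrrc32 and averaged 4.63, 1.76 and 1.60 CPM against 1.90 CPM in Parental. It was high in ORP5/8 KD like Lrrc32, with a log2 fold change of 1.28 over Parental (edgeR, adjusted p = 7.82e-07). Emsy, 85.0 kb after Lrrc32, averaged 48.8, 47.6 and 44.1 CPM against 44.6 CPM in Parental.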

How the data were processed

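Total RNA of RAW264.7 cells was purified on RNeasy columns and made into TruSeq Stranded mRNA libraries, per the labels' protocols. Trim Galore 0.5.0, STAR 2.7.5a, Picard, RSEM and mm10 are named in the submitters' processing notes. The values deposited by the authors are RSEM expected counts per gene, of which 4.63% carry decimals; they were rounded before testing. The 92 spike-in records held 0 counts and were left out. Genes kept by filterByExpr (minimum count 10) held 99.97% of counts. All 16 libraries were fitted together with edgeR 4.0.16 (quasi-likelihood, TMM) in R 4.3.3, with Benjamini-Hochberg adjustment over all 13107 genes in each comparison. The biological coefficient of variation was 6.86%. The procedure was tested on simulated data in which few genes were changed, evenly up and down. That test does not cover data with as many calls as here. Levels are TMM-scaled CPM.

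Positions and exon lengths come from GENCODE M21 on GRCm38 (mm10), in which 55180 records matched by versioned identifier. The 10 genes and the pathway list were chosen with earlier results of these data known. From each role, up to 3 called genes with the smallest adjusted p were named, provided that 1 group averaged at least 1 CPM, beside Ranbp3 and Nrros; others are said to be chosen later. Likeness to Ranbp3l used Pearson's r of log2(CPM + 0.1). Alternatives were upper-quartile scaling, DESeq2 size factors, the Wald test of DESeq2 1.42.0, no low-count filter, a floor of 1 CPM reached by 4 libraries, the compared groups alone, the replicate number as a block, and each library left out. Replicate numbers were not used as pairs in the main fit. Of 24 correlations of same-numbered libraries 1 was over 0.1, but 9 of 16 libraries lay closest to their own number. These values do not settle whether the numbers pair libraries. Results of some items, withheld for evaluation, are not reported here.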

Additional observations from a re-analysis of the deposited data

Results flagged for a closer look

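Of 40 groups of 4 libraries examined (10 genes in 4 groups), 2 held a library far from the other 3. The limit used marks about 1 group in 20 where no library differs. Over all genes, ATP11A/C KD 1 lay furthest from its replicates. The chi-square between its counts and those of ATP11A/C KD 2, 3 and 4 averaged 44.9, 20.7 and 25.7 per gene. The other pairs of ATP11A/C KD libraries gave 18.3, 10.6 and 7.49. The highest pair within any other group gave 18.1 (ORP5/8 KD 1 and 3). The cause was not tested. Tgfb1 was at 189 CPM in ATP11A/C KD 1, beside 153, 156 and 158 CPM in the other ATP11A/C KD libraries. Smad3 was at 20.2 CPM in ORP5/8 KD 1, beside 18.9, 18.9 and 19.1 CPM in the other ORP5/8 KD libraries. Without ATP11A/C KD 1, the log2 fold change of Tgfb1 in ORP5/8 KD over ATP11A/C KD was -0.18 (edgeR, adjusted p = 0.109).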

How the results depend on the processing

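Between CDC50A and ATP11A/C KD, 17 other pathway genes were called in the main fit, 11 without the low-count filter and 6 in a fit of those groups alone. With a library left out the count was 7 to 17. Over all genes 3428, 3399 and 2573 were called in these fits, and 2361 to 3841 with a library left out. The cause was not tested. The other totals of member and pathway calls stayed within 1.5 times, but the split by direction did not. With upper-quartile scaling, pathway genes called higher were 16 (10 with TMM) and lower 15 (23) in ORP5/8 KD over Parental. In ORP5/8 over CDC50A KD 17 (11) were higher. Of all genes called in these comparisons, 63.3% (47.5%) and 60.7% (48.4%) were higher. With a library left out, members called were 6 to 8, 4 to 6 and 5 to 6 against Parental in ORP5/8, ATP11A/C and CDC50A KD, and 3 to 4, 5 to 7 and 7 to 8 for CDC50A over ATP11A/C, ORP5/8 over ATP11A/C and ORP5/8 over CDC50A KD. Pathway genes called were 27 to 33, 23 to 30 and 27 to 30, then 7 to 17, 19 to 24 and 28 to 34. With the replicate number as a block, members called were 6, 5, 6, 4, 6 and 8 in that order, and pathway genes 33, 27, 32, 16, 21 and 30; 9 of 16 libraries lay closest to their own number. Differences that were not called changed sign for Smad1 in ORP5/8 over ATP11A/C KD (-0.04; -0.10 to 0.02 with a library left out, 0.01 with upper-quartile scaling, 0.02 without ATP11A/C KD 1), Smad5 in the same comparison (0.01; -0.03 to 0.04 with a library left out, -0.02 without ORP5/8 KD 1, -0.03 without ATP11A/C KD 1) and Ranbp3l in ORP5/8 over CDC50A KD (0.02; -0.02 to 0.08 with a library left out, -0.02, -0.00, -0.00 and -0.01 without ORP5/8 KD 1 or 4, or CDC50A KD 1 or 3). Depth limits Smad7 most, at 23 to 71 counts per library.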
